A study of Mus musculus with 8 samples.

Results

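Genes that encode matrix-cutting metalloproteases and their inhibitors were compared between 2 fetal mouse vessels, the ductus arteriosus and the aorta. A gene was included when a probe set on the array carried exactly 1 symbol and that symbol was Mmp, Adam or Adamts followed by a number, Timp1 to Timp4, or Reck. Where several probe sets read a gene, the brightest on average over the 8 arrays was used. This gave 66 of the 18193 genes measured: 18 MMPs, 28 ADAMs, 15 ADAMTS genes and 5 inhibitors. Genes were thus selected by name, and the tissue difference played no part in the choice of probe set. The 2 groups were 4 arrays of ductus arteriosus and 4 arrays of aorta, all from untreated wild type mice whose strain is given as CD88, with the arrays of a tissue labelled as biological replicates. Each array held the pooled vessels of up to 10 fetuses of a single litter at day 19 of gestation, so an array stands for a litter and not for a fetus. Values are log2 intensities, and each tissue difference of a gene compares levels of the same probe set. Where a level is set against the median or first quartile of the arrays, this is a rough guide only. The mean of a marker list is taken over the probe sets of its genes.

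MMPs are zinc-dependent enzymes that cut collagens, proteoglycans and other matrix proteins, and they are secreted or held on the cell membrane. ADAMs are membrane proteins, of which some release growth factors and receptors from the cell surface and others lack an active site and serve in adhesion. ADAMTS enzymes are secreted and cut large proteoglycans such as versican and aggrecan, or trim procollagens. TIMPs bind and block these enzymes, and RECK is a membrane-anchored inhibitor. The ductus carries blood past the fetal lung and closes after birth, with remodelling of the matrix in its inner wall.

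The arrays of the same tissue correlated at 0.986 to 0.992 over all genes and those of different tissues at 0.979 to 0.987. All 6 smooth muscle markers had means above the median of every array, and 2 of them (Myh11 and Cnn1) were called higher in the ductus. The mean log2 level of the smooth muscle list was 10.42 to 10.83 over the ductus arrays and 9.63 to 10.22 over the aorta arrays. The samples also held other cells. Of 8 mesothelial markers, 6 were called higher in the aorta, and the mean log2 level of the list was 6.29 to 6.93 in the ductus and 7.62 to 9.01 in the aorta. Of 6 endothelial markers, 3 were called higher in the aorta (list mean 7.31 to 7.51 in the ductus and 7.91 to 8.32 in the aorta). Of 5 airway epithelial markers, 2 (Cxcl15 and Scgb1a1) were called higher in the ductus. The list mean was 5.34 to 6.58 over the ductus arrays, against 3.60 to 4.77 over the aorta arrays. Cxcl15 averaged 11.11 against 5.96, and Scgb1a1 6.36 against 3.31. Sftpc, Nkx2-1 and Foxj1 were not called. Sftpc averaged 6.37 against 4.92 with overlapping groups, Nkx2-1 2.86 against 2.96, and Foxj1, below every first quartile, 2.55 against 2.59. Of 6 cartilage markers, Sox9 was called higher in the ductus and Acan in the aorta. Limma called 0 of the other 35 markers, of fibroblasts, skeletal muscle, macrophages, neutrophils, thymus, adipocytes, and neurons and Schwann cells, of which 4 had an unadjusted p under 0.05. Ductus replicate 3 stood apart at 6.35 for skeletal muscle (the other arrays reached at most 4.01) and aorta replicate 3 at 8.58 for adipocytes. The part of these cells in the differences given here was not tested. In these bulk samples fewer cells of a type and less RNA per cell cannot be told apart.

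Of the 66 genes, 7 were higher in the ductus (Adamts9, Adamts1, Adamts4, Adamts3, Mmp14, Adam19 and Adam23) and 3 were higher in the aorta (Adamts20, Adamts5 and Timp4), at a Benjamini-Hochberg adjusted p under 0.05 over all genes in limma. Among all genes tested 3.86% were called, 1.80% higher in the ductus and 2.06% higher in the aorta. The ADAMTS family had 6 of the 10 called genes among its 15 members, against 1 of 18 MMPs, 2 of 28 ADAMs and 1 of 5 inhibitors. Whether these shares differ was not tested. The direction was mixed: 32 of the 66 genes had a higher mean in the ductus, and the median log2 difference was -0.006, beside -0.03 over all genes. Of the 10 called genes, 4 (Adamts20, Timp4, Adamts3 and Adam19) differed by at least 2-fold, and 2.13% of all genes were called with a difference of that size. In 16 of the 66 genes, every ductus value lay on the same side of every aorta value, beside 11.3% of all genes. All 10 called genes were among these 16, and the others were Mmp16, Mmp17, Timp1, Adam9, Adam7 and Adam5.

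**Figure D1:**
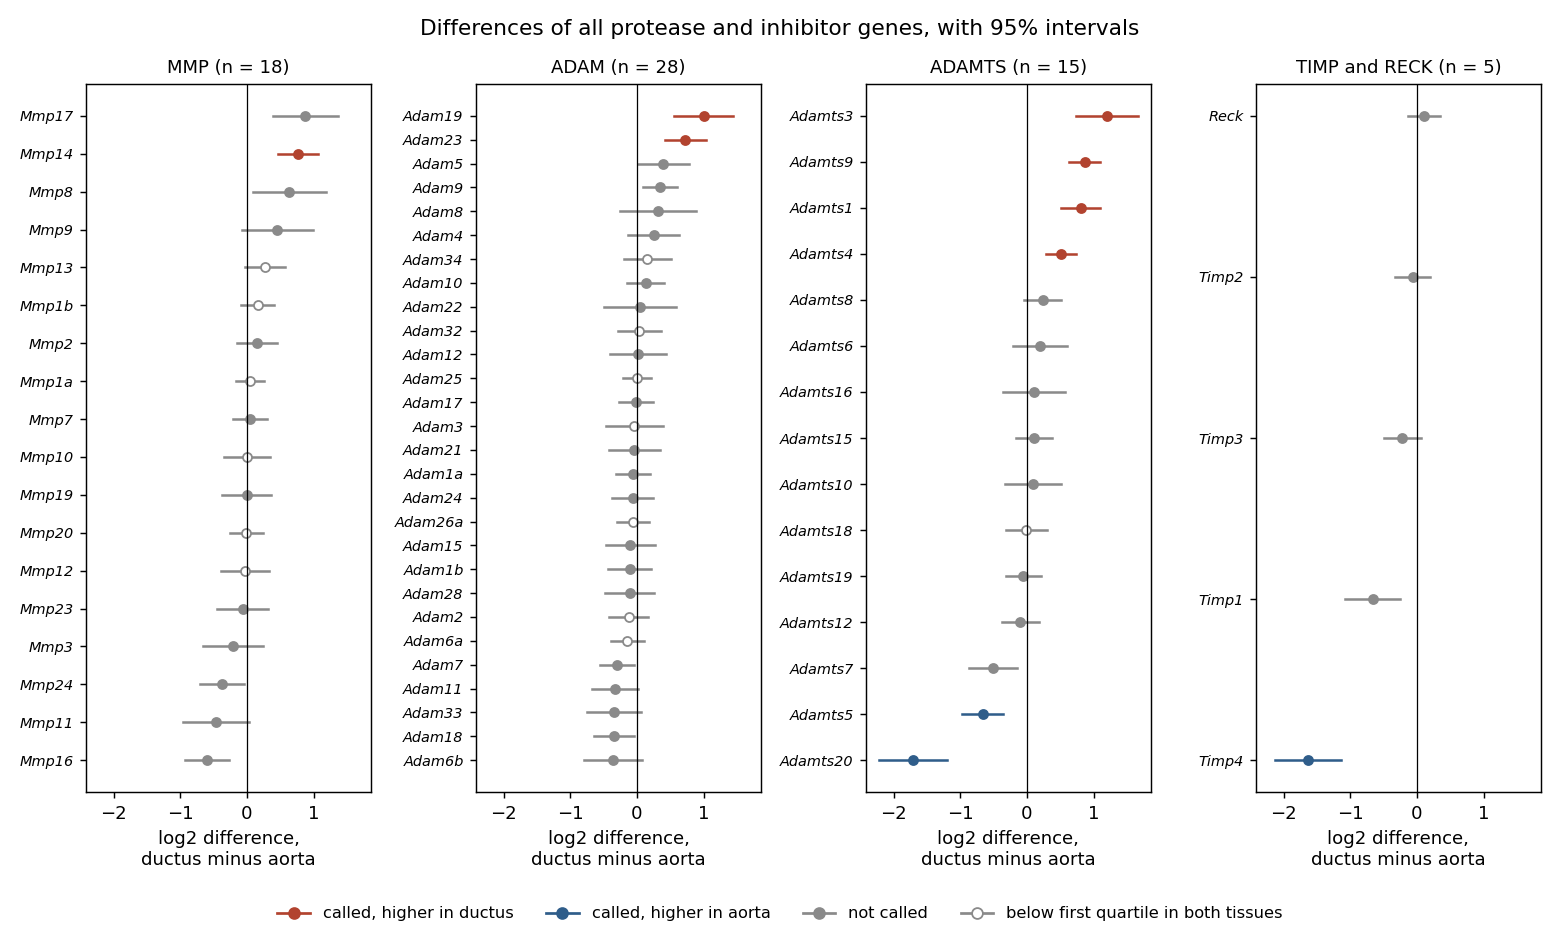
Log2 difference between ductus and aorta for all 66 genes, by family, with 95% intervals from limma; positive values are higher in the ductus. Red marks the 7 genes called higher in the ductus, blue the 3 called higher in the aorta, and open circles the 14 genes whose means were below the first quartile of every array in both tissues.

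The arrays carried no detection call. As a guide, 35 of the 66 genes had a mean above the median of every array, 14 had means in both tissues below the lowest first quartile of the arrays (2.74), and 17 lay between these. The 14 were Mmp1a, Mmp1b, Mmp10, Mmp12, Mmp13, Mmp20, Adam2, Adam3, Adam6a, Adam25, Adam26a, Adam32, Adam34 and Adamts18. They were not shown to be above background, and a true difference in them could be hidden. Some of the 17 were close to that level too. Ductus and aorta means were 2.46 and 2.75 for Adam7, 2.80 and 2.40 for Adam5, and 2.67 and 3.01 for Adam18. The same caution applies to these. The 10 called genes were all among the 35.

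The ADAMTS enzymes that cut versican and aggrecan differed in both directions. Of 7 measured, Adamts9, Adamts1 and Adamts4 were higher in the ductus, and Adamts20 and Adamts5 were higher in the aorta. Adamts9, known to cut versican, was at 11.52, 11.46, 11.43 and 11.49 in ductus pools 1 to 4, against 10.50, 10.79, 10.48 and 10.66 in aorta pools 1 to 4. The ductus values were tightly grouped and lay above every aorta value, with a log2 difference, ductus minus aorta, of 0.87 ± 0.10 (SE; 1.82-fold, adjusted p = 0.00167). Folds here and below are the higher tissue over the lower. Its closest relative Adamts20, whose loss in mice gives the belted coat pattern, went the other way. It was at 5.20, 4.91, 4.81 and 5.08 in ductus pools 1 to 4, against 6.48, 7.37, 6.78 and 6.23 in aorta pools 1 to 4. All 4 ductus values were lower than the lowest aorta value, with a log2 difference, ductus minus aorta, of -1.71 ± 0.22 (SE; 3.27-fold, adjusted p = 0.00266). The aorta pools spread over more than a log2 unit, with replicate 2 highest and replicate 4 lowest.

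Adamts1 and Adamts5, which are immediate neighbours among the protein-coding genes of chromosome 16, also differed in opposite directions. Adamts1 was at 9.12, 9.27, 9.47 and 9.33 in ductus pools 1 to 4, against 8.34, 8.78, 8.41 and 8.42 in aorta pools 1 to 4. The groups did not overlap, and a log2 difference, ductus minus aorta, of 0.81 ± 0.13 (SE; 1.75-fold, adjusted p = 0.00852) was found. Adamts5, also called aggrecanase-2, was at 8.13, 8.50, 8.0 and 8.40 in ductus pools 1 to 4, against 8.99, 9.06, 8.75 and 8.88 in aorta pools 1 to 4. Here too the groups did not overlap, with the ductus lower: the log2 difference was -0.66 ± 0.14 (1.58-fold, adjusted p = 0.0295). Dropping any 1 of 6 arrays ended this call (adjusted p up to 0.089), whereas that of Adamts1 was kept without each of the 8. With the mean over its 4 probe sets Adamts5 differed by log2 -0.32 (adjusted p = 0.233).

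Adamts4, aggrecanase-1, had the smallest called difference among the proteoglycanases. It was at 9.25, 9.31, 9.29 and 9.24 in ductus pools 1 to 4, against 8.60, 8.83, 8.71 and 8.89 in aorta pools 1 to 4. Every ductus value exceeded every aorta value, but the difference was 0.52 ± 0.10 on the log2 scale (1.43-fold, adjusted p = 0.0223), and the call was lost without any of 7 of the 8 arrays (adjusted p up to 0.0675) and with the mean over its 2 probe sets (log2 0.44, adjusted p = 0.0528). Adamts15, also able to cut versican, averaged 10.25 ± 0.085 over the ductus pools and 10.14 ± 0.19 over the aorta pools (log2 mean ± SD, n = 4 each, as in all averages given here), which did not pass (adjusted p = 0.737; 95% interval of the log2 difference -0.16 to 0.37). Adamts8 averaged 4.44 ± 0.14 over the ductus pools and 4.20 ± 0.17 over the aorta pools (adjusted p = 0.385; interval -0.04 to 0.51).

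**Figure D2:**
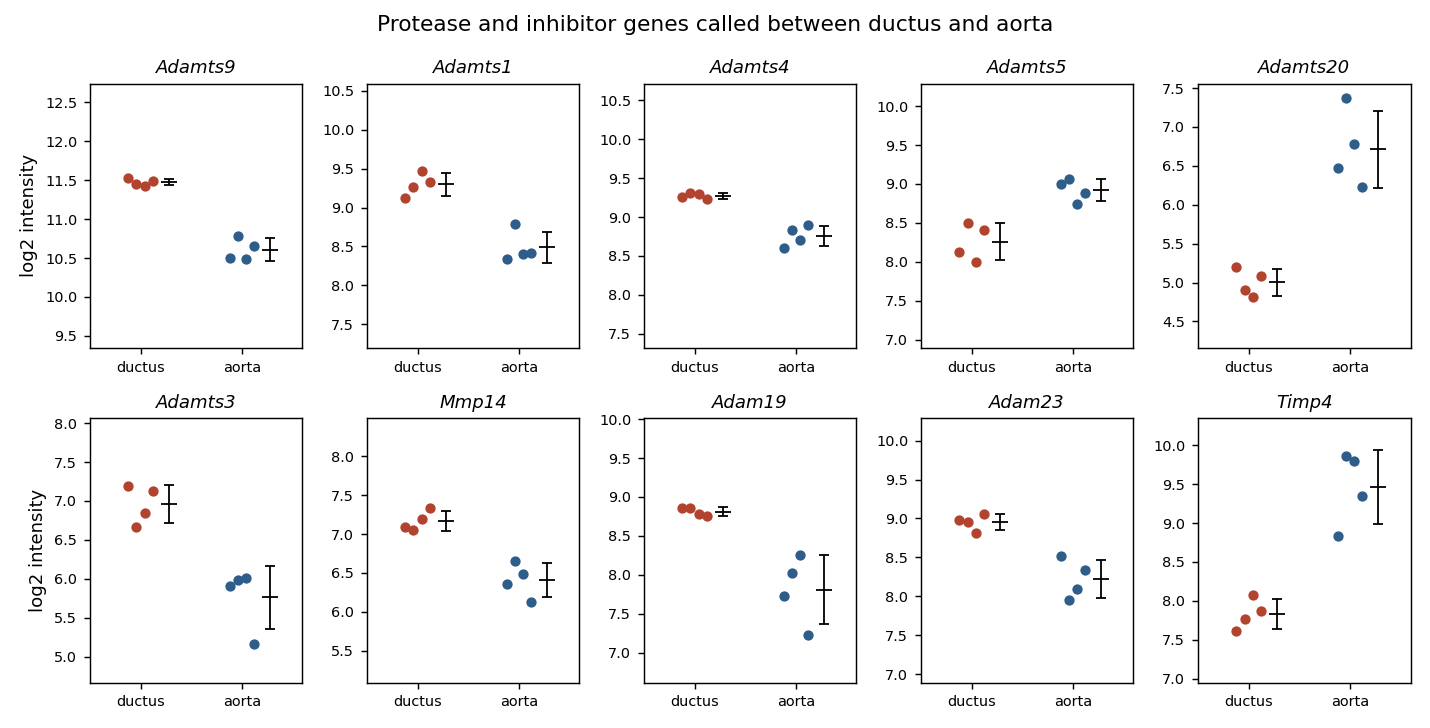
Log2 intensity of the 10 called genes on each array. Points are pools (4 ductus in red, 4 aorta in blue), the bars beside them are mean ± SD, and each panel spans the same log2 range; the groups do not overlap in any panel.

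The sequence just upstream of the start is shown for the related pair Adamts9 and Adamts20, which differed in opposite directions, for Adamts1 as another gene higher in the ductus, and for Timp4, the 1 inhibitor called. These are the 250 bases before the start that RefSeq gives on GRCm38.p6: chr6:92943535-92943784, minus strand, for Adamts9; chr16:85803114-85803363, minus strand, for Adamts1; chr15:94404351-94404600, minus strand, for Adamts20; and chr6:115252206-115252455, minus strand, for Timp4. Of the 66 genes, 38 had an entry. Capitals mark the TATA box TATAAA, the GC box of Sp factors, which reads GGGCGG, and a core motif of AP-2 factors, which reads GCCNNNGGC, all searched on both strands, and no marked motif overlaps another.
Adamts9: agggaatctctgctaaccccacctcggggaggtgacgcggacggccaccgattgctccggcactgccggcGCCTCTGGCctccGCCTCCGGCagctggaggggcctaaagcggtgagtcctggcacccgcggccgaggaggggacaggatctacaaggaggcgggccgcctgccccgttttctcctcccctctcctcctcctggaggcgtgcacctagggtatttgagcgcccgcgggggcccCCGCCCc
Adamts1: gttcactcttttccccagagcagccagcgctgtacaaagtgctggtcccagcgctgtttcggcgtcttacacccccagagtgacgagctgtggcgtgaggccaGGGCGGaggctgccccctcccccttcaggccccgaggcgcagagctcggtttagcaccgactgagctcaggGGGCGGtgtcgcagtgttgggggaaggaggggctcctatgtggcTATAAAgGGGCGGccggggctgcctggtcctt
Adamts20: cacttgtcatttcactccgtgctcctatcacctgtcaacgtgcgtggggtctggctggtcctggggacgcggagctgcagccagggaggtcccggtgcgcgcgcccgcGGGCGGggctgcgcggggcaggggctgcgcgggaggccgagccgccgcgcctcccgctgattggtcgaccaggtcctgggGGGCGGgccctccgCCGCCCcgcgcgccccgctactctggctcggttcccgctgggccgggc
Timp4: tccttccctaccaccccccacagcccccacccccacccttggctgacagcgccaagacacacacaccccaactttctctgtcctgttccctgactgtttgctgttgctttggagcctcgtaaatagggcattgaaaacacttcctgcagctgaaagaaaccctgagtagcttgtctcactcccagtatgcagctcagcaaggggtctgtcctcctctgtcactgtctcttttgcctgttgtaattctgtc
Adamts1 held TATAAA from 32 bases before the start and 3 GC boxes, from 147, 76 and 25 bases before it. Adamts20 held 3 GC boxes, from 142, 62 and 48 bases before the start, and no TATAAA. Adamts9 held 1 GC box, from 7 bases before the start, and a pair of GCCNNNGGC matches that begin 180 and 167 bases before the start. Timp4 held none of the 3 motifs, and its G and C share was 53.6%, with 2 CG dinucleotides, against 71.2% and 22 for Adamts9, 65.6% and 15 for Adamts1, and 76.4% and 32 for Adamts20. Over all 32851 RefSeq promoters, 12.4% held TATAAA, 32.7% held GGGCGG and 13.7% held GCCNNNGGC in this window, beside 23.3%, 37.2% and 16.3% of the 43 promoters of the 38 genes, and the median over all was 52.4% G and C with 6 CG dinucleotides. The matches describe the letters only and are not shown to be binding sites.

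Adamts3 trims the amino end of procollagens and activates the lymphatic growth factor VEGF-C. By the probe set used for each gene, it showed the largest difference among the protease and inhibitor genes higher in the ductus. The other Adamts9 probe sets gave larger differences (log2 1.39 and 1.64). Adamts3 was at 7.19, 6.67, 6.85 and 7.13 in ductus pools 1 to 4, against 5.91, 5.98, 6.01 and 5.16 in aorta pools 1 to 4. The groups did not overlap, and aorta replicate 4 stood below the other aorta pools. The log2 difference was 1.196 ± 0.21 (2.29-fold, adjusted p = 0.0118) and stayed at 1.00 without aorta replicate 4. The call was kept without each of the 8 arrays, but not with the mean over its 2 probe sets (log2 0.57, adjusted p = 0.0634). The remaining 7 ADAMTS genes were not called, with log2 differences between -0.51 and 0.20, and 1 of them had an unadjusted p under 0.05 in limma. Adamts10, which binds fibrillin-1, averaged 9.53 ± 0.24 over the ductus pools and 9.44 ± 0.35 over the aorta pools (adjusted p = 0.866). Adamts12 averaged 8.91 ± 0.16 over the ductus pools and 9.01 ± 0.14 over the aorta pools (adjusted p = 0.769).

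Of the 18 MMPs, Mmp14 was called, higher in the ductus, and 17 were not, among them both gelatinases. Mmp14, or MT1-MMP, is a membrane collagenase that activates pro-MMP2. It was at 7.09, 7.05, 7.19 and 7.33 in ductus pools 1 to 4, against 6.35, 6.66, 6.48 and 6.13 in aorta pools 1 to 4. Every ductus value lay above every aorta value, with a log2 difference, ductus minus aorta, of 0.76 ± 0.13 (SE; 1.69-fold, adjusted p = 0.0122). The call was kept without each of the 8 arrays. Mmp2, the gelatinase that Mmp14 activates, averaged 10.49 ± 0.19 over the ductus pools and 10.34 ± 0.18 over the aorta pools (log2 difference 0.15 ± 0.14, adjusted p = 0.666). The groups overlapped, and the 95% interval was -0.16 to 0.45. Mmp9, the other gelatinase, was at 7.83, 7.22, 7.81 and 7.88 in ductus pools 1 to 4, against 7.08, 7.15, 6.82 and 7.89 in aorta pools 1 to 4. The highest value of all was an aorta pool (replicate 4), and the log2 difference of 0.45 ± 0.24 did not pass (adjusted p = 0.398; 95% interval -0.08 to 0.98). The second Mmp9 probe set gave log2 -0.03 (adjusted p = 0.971). Neutrophils store Mmp9 and the collagenase Mmp8. Mmp8 was at 6.77, 6.37, 7.18 and 6.52 in ductus pools 1 to 4, against 5.87, 5.95, 5.74 and 6.74 in aorta pools 1 to 4. It too was lowest among ductus pools in replicate 2 and highest among aorta pools in replicate 4 (adjusted p = 0.228). The mean log2 level of 6 neutrophil markers was 9.55, 9.25, 9.87 and 9.36 in ductus pools 1 to 4 and 9.08, 9.31, 9.22 and 9.56 in aorta pools 1 to 4. That list was also lowest in ductus replicate 2 and highest in aorta replicate 4 within its tissue. So were the airway epithelial list (5.34 and 4.77) and the skeletal muscle list (3.70 and 3.82). The second Mmp9 probe set was lowest in ductus replicate 1 (4.88) and highest in aorta replicate 4 (5.43). The part of any of these cells in the values of Mmp8 and Mmp9 was not tested.

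The other membrane MMPs differed in both directions without passing. Mmp17, or MT4-MMP, was at 5.69, 4.97, 6.01 and 5.58 in ductus pools 1 to 4, against 4.47, 4.48, 4.89 and 4.92 in aorta pools 1 to 4. The groups did not overlap, but the spread within the ductus was wide, and the log2 difference was 0.87 ± 0.22 (adjusted p = 0.0611). Mmp16, or MT3-MMP, was at 8.04, 8.42, 8.32 and 8.61 in ductus pools 1 to 4, against 8.68, 9.03, 8.97 and 9.13 in aorta pools 1 to 4. All ductus values were lower than all aorta values, with a log2 difference of -0.60 ± 0.15 (adjusted p = 0.0607), and 4 of the 12 other settings, as well as leaving out aorta replicate 1, gave an adjusted p of 0.0346 to 0.0485. Mmp17 passed without the lowest 40% of genes (adjusted p = 0.049) and without ductus replicate 2 (0.0142). Mmp23 averaged 10.44 ± 0.25 over the ductus pools and 10.50 ± 0.27 over the aorta pools (adjusted p = 0.903). Among secreted enzymes, Mmp11, or stromelysin-3, averaged 5.34 ± 0.41 over the ductus pools and 5.81 ± 0.30 over the aorta pools (adjusted p = 0.341). Mmp19 averaged 7.56 ± 0.31 over the ductus pools and 7.56 ± 0.16 over the aorta pools (adjusted p = 0.993). Mmp3, stromelysin-1, averaged 3.199 ± 0.29 over the ductus pools and 3.41 ± 0.35 over the aorta pools (adjusted p = 0.676). The macrophage elastase Mmp12 averaged 2.57 ± 0.22 over the ductus pools and 2.60 ± 0.26 over the aorta pools, below every first quartile, and the collagenases Mmp1a, Mmp1b and Mmp13 were below it too.

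Of the 28 ADAMs, Adam19 and Adam23 were higher in the ductus and 0 were called higher in the aorta. At an unadjusted p under 0.05, limma had 6 ADAMs, 2 of them higher in the aorta (Adam7 and Adam18, both at low levels). The share of all genes at that threshold was not counted. This count and those of other lists at an unadjusted p are therefore not read as an excess. Adam19, a sheddase of neuregulin needed for the endocardial cushions in mice, was at 8.85, 8.86, 8.79 and 8.75 in ductus pools 1 to 4, against 7.73, 8.03, 8.25 and 7.23 in aorta pools 1 to 4. The ductus values lay between 8.75 and 8.86, while the aorta values spread from 7.23 to 8.25 below them. The log2 difference was 1.00 ± 0.20 (2.00-fold, adjusted p = 0.022), and the call was lost without any ductus pool or aorta replicate 1 (adjusted p up to 0.0651). Adam23, which has no active protease site and binds LGI proteins at neuronal membranes, was at 8.98, 8.96, 8.81 and 9.06 in ductus pools 1 to 4, against 8.51, 7.95, 8.10 and 8.33 in aorta pools 1 to 4. The groups did not overlap, with a log2 difference, ductus minus aorta, of 0.73 ± 0.14 (SE; 1.66-fold, adjusted p = 0.0186). Its call was lost without any of 4 arrays (adjusted p up to 0.0614) and with the mean over its 3 probe sets (log2 0.28, adjusted p = 0.415).

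The broadly expressed sheddases did not pass. Adam10, which cuts Notch receptors, averaged 10.73 ± 0.12 over the ductus pools and 10.59 ± 0.19 over the aorta pools (adjusted p = 0.679; 95% interval of the log2 difference -0.14 to 0.41). Adam17, which releases TNF and EGF receptor ligands, averaged 9.16 ± 0.13 over the ductus pools and 9.18 ± 0.14 over the aorta pools (adjusted p = 0.966; interval -0.28 to 0.24). Both intervals leave room for a shift in either direction, and they hold for the probe set used. The other 3 Adam10 probe sets gave log2 0.52 (adjusted p = 0.314), log2 0.81 (adjusted p = 0.219) and log2 -0.10 (adjusted p = 0.835). Adam9, another sheddase, was at 10.82, 10.69, 10.71 and 10.80 in ductus pools 1 to 4, against 10.24, 10.51, 10.60 and 10.28 in aorta pools 1 to 4. The groups did not overlap, yet the log2 difference of 0.35 ± 0.11 did not pass (adjusted p = 0.152). Adam33 averaged 6.72 ± 0.14 over the ductus pools and 7.06 ± 0.37 over the aorta pools (adjusted p = 0.403). Adam12, or meltrin alpha, averaged 8.43 ± 0.25 over the ductus pools and 8.41 ± 0.34 over the aorta pools (adjusted p = 0.974). These groups overlapped. Adam15, which binds integrins, averaged 7.63 ± 0.33 over the ductus pools and 7.72 ± 0.14 over the aorta pools (adjusted p = 0.838). Adam22, another ADAM without an active site, averaged 7.55 ± 0.37 over the ductus pools and 7.50 ± 0.41 over the aorta pools (adjusted p = 0.951). The 16 ADAMs known mainly from the male reproductive tract had tissue means of at most 3.55, 7 of them below every first quartile, and none was called by limma (lowest adjusted p 0.224), with 3 at an unadjusted p under 0.05.

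Of the inhibitors, Timp4 was higher in the aorta and the other 4 were not called. Timp4, which is known from heart, vessels and fat, was at 7.62, 7.76, 8.08 and 7.86 in ductus pools 1 to 4, against 8.84, 9.86, 9.80 and 9.34 in aorta pools 1 to 4. The highest ductus value lay well below the lowest aorta value, with a log2 difference, ductus minus aorta, of -1.63 ± 0.22 (SE; 3.10-fold, adjusted p = 0.00321). The call was kept without each of the 8 arrays (log2 difference -1.84 to -1.50). The second Timp4 probe set gave log2 -2.19 (adjusted p = 0.00071) over all probe sets. Within the aorta Timp4 was highest in replicate 2 and lowest in replicate 1. The mesothelial marker mean was 9.01, 8.13, 7.62 and 8.59 in aorta pools 1 to 4 and 6.29 to 6.93 in the ductus. The endothelial mean was 8.32, 8.16, 7.91 and 8.19 in aorta pools 1 to 4 and 7.31 to 7.51 in the ductus. The adipocyte mean was 4.87, 5.80, 8.58 and 7.0 in aorta pools 1 to 4 and 5.79 to 6.997 in the ductus. The smooth muscle mean was 9.63, 10.22, 10.09 and 9.91 in aorta pools 1 to 4 and 10.42 to 10.83 in the ductus. The part of other cell types in the Timp4 difference was not tested.

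Timp1 was at 6.03, 6.45, 6.596 and 6.21 in ductus pools 1 to 4, against 7.29, 7.22, 6.68 and 6.75 in aorta pools 1 to 4. All ductus values were lower, although ductus replicate 3 and aorta replicate 3 lay close together, and the log2 difference of -0.67 ± 0.18 did not pass (adjusted p = 0.0853). Timp2, which also takes part in the activation of pro-MMP2, was at 10.58, 10.76, 10.86 and 10.78 in ductus pools 1 to 4, against 10.97, 10.93, 10.66 and 10.67 in aorta pools 1 to 4. The groups overlapped (adjusted p = 0.848; 95% interval of the log2 difference -0.33 to 0.20). Timp3, the matrix-bound inhibitor, was at 10.05, 9.72, 10.05 and 10.10 in ductus pools 1 to 4, against 10.10, 10.27, 10.07 and 10.37 in aorta pools 1 to 4. These groups overlapped as well (adjusted p = 0.45; interval -0.49 to 0.06). Reck was at 9.08, 9.02, 8.87 and 8.91 in ductus pools 1 to 4, against 9.02, 8.82, 8.85 and 8.74 in aorta pools 1 to 4, with overlapping groups (adjusted p = 0.694; interval -0.13 to 0.34). In the reference gene table Timp1, Timp3 and Timp4 lie within the synapsin genes Syn1, Syn3 and Syn2. Syn2, looked up after the values of Timp4 were seen, averaged 6.55 ± 0.34 over the ductus pools and 7.17 ± 0.31 over the aorta pools and did not pass (log2 difference -0.62 ± 0.20, adjusted p = 0.153; by the mean over its probe sets -0.26, adjusted p = 0.3).

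**Figure D3:**
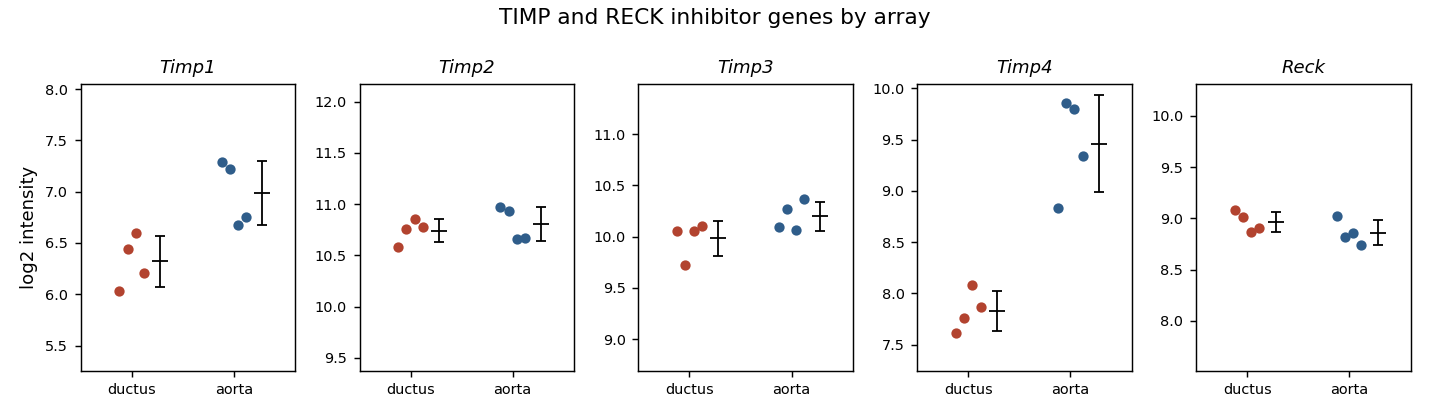
Log2 intensity of the 4 TIMP genes and Reck on each array, with mean ± SD beside the points (4 ductus pools in red, 4 aorta pools in blue). The Timp4 values are 7.62 to 8.08 in the ductus and 8.84 to 9.86 in the aorta; the groups of Timp2, Timp3 and Reck overlap.

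A total of 117 probe sets read the 66 genes, and 30 genes had more than 1. Tested over all 34945 probe sets with 1 symbol, 14 of the 117 were called, 10 with the ductus higher and 4 with the aorta higher, beside 2.86% of all probe sets. The probe sets of a gene did not all give the same call. For Adamts9 all 3 were called, the other 2 with log2 1.39 (adjusted p = 0.000612) and log2 1.64 (adjusted p = 0.00349), larger than the probe set used. For Adam19 and Timp4 both probe sets were called. For Mmp14 all 3 were higher in the ductus, but the others, at log2 0.69 (adjusted p = 0.168) and log2 0.37 (adjusted p = 0.286), did not pass. For Adamts4 the second probe set gave log2 0.36 (adjusted p = 0.359). For Adam23 the other 2 gave log2 0.03 (adjusted p = 0.963) and log2 0.07 (adjusted p = 0.918), at levels of at most 3.48 in both tissues. The second Adamts3 probe set was below every first quartile and gave log2 -0.06 (adjusted p = 0.88). Of the 4 Adamts5 probe sets 3 were lower in the ductus and 1 was called, with the others at log2 -0.50 (adjusted p = 0.14), log2 -0.16 (adjusted p = 0.784) and log2 0.04 (adjusted p = 0.952). Adamts1 and Adamts20 had a single probe set each. Among genes that were not called, the mean over probe sets gave a smaller difference for Mmp16 (log2 -0.34, adjusted p = 0.0878) and Timp3 (log2 -0.054, adjusted p = 0.864). For Timp2 and Mmp2 the probe set with the largest interquartile range gave larger ones, of log2 -0.314 (adjusted p = 0.628) and 0.277 (adjusted p = 0.519). Which transcripts the probe sets read was not examined.

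**Figure D4:**
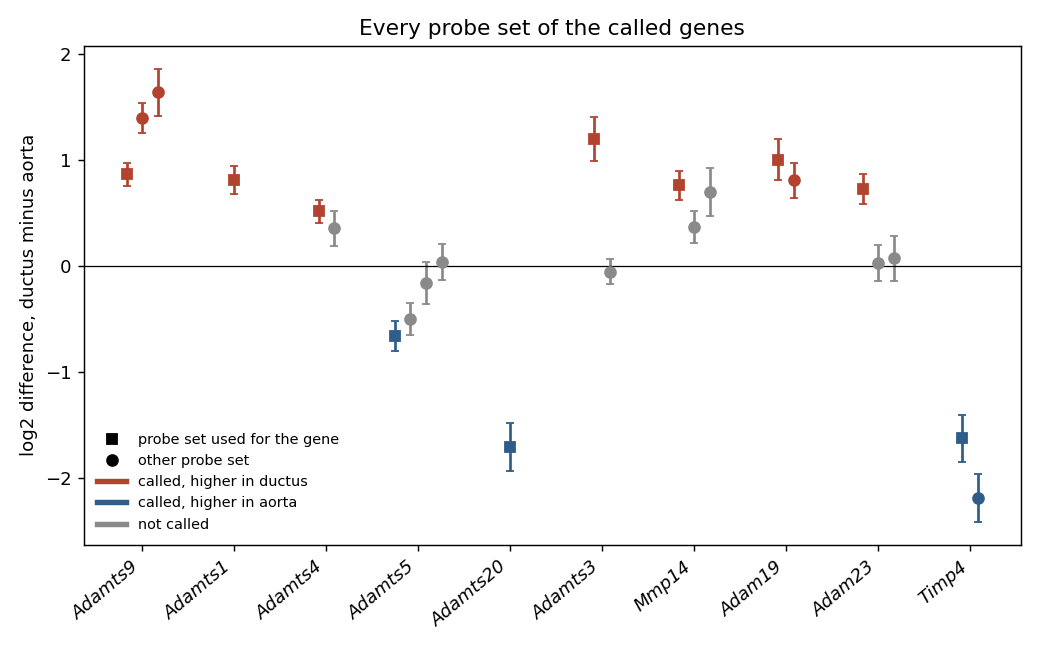
Log2 difference, ductus minus aorta, of every probe set of the 10 called genes, with standard errors; squares are the probe sets used for the gene and circles the others. Red and blue mark probe sets called higher in the ductus or the aorta over all probe sets, and grey those not called: all 3 of Adamts9 and both of Timp4 are called, against 1 of 4 of Adamts5.

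Genes that work beside these enzymes were read from a list of 58, of which 56 were measured: activators, convertases, procollagen-processing enzymes, ADAMTS-like proteins, other inhibitors, cathepsins, partners of ADAMs and proteoglycan substrates. Of the 56, 3 were called with the ductus higher and 3 with the aorta higher, beside the 3.86% called among all genes, and the median log2 difference was -0.09. Among those higher in the ductus, 2 ADAMTS-like genes differed most, whose products resemble ADAMTS enzymes without the protease part. Adamtsl3 was at 7.32, 7.50, 7.75 and 7.90 in ductus pools 1 to 4, against 5.78, 4.86, 5.71 and 4.51 in aorta pools 1 to 4. The groups were widely separated, at 5.28-fold (adjusted p = 0.00159), with the aorta pools spread over more than a log2 unit. Adamtsl2, a fibrillin-binding protein mutated in human geleophysic dysplasia, was at 6.40, 6.32, 6.66 and 5.72 in ductus pools 1 to 4, against 4.62, 4.55, 4.41 and 5.05 in aorta pools 1 to 4. It was 3.07-fold higher in the ductus without overlap (adjusted p = 0.00257). The other 5 of this list (Adamtsl1, Adamtsl4, Adamtsl5, Papln and Thsd4) were not called, although 2 of them, both with the ductus lower, had an unadjusted p under 0.05. Adamtsl5 was at 6.25, 5.46, 6.16 and 5.32 in ductus pools 1 to 4, against 6.36, 7.32, 6.83 and 6.38 in aorta pools 1 to 4. All ductus values were below all aorta values, and the log2 difference was -0.93 ± 0.28 (adjusted p = 0.116; by the mean over its probe sets -0.56, adjusted p = 0.0848). Thsd4 averaged 6.84 ± 0.13 over the ductus pools and 7.28 ± 0.41 over the aorta pools (adjusted p = 0.294).

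Aggrecan, the substrate of Adamts4 and Adamts5, was lower in the ductus. Acan was at 9.18, 10.19, 8.94 and 9.63 in ductus pools 1 to 4, against 11.16, 11.39, 11.15 and 11.01 in aorta pools 1 to 4. The ductus pools were below every aorta pool and varied more, with a log2 difference, ductus minus aorta, of -1.69 ± 0.24 (SE; 3.23-fold, adjusted p = 0.00447). Aggrecan is also a cartilage product. Of the other cartilage markers Col2a1 averaged 3.03 ± 0.17 over the ductus pools and 2.75 ± 0.17 over the aorta pools and was not called (adjusted p = 0.316). Matn1 was below every first quartile in both tissues. Sox9 averaged 8.63 ± 0.083 over the ductus pools and 6.68 ± 0.32 over the aorta pools, in the opposite direction to Acan. Comp averaged 3.00 ± 0.099 over the ductus pools and 3.37 ± 0.18 over the aorta pools, in the direction of Acan and without overlap (adjusted p = 0.14). Col9a1 also had the lower mean in the ductus, with 6.95 ± 0.46 against 7.23 ± 0.48 (adjusted p = 0.707). The part of cartilage in the Acan difference was not tested. Versican, the main large proteoglycan of the vessel wall, averaged 11.68 ± 0.051 over the ductus pools and 11.49 ± 0.082 over the aorta pools, which did not pass (Vcan, log2 difference 0.20 ± 0.094, adjusted p = 0.347). Of the partners of ADAMs, Tspan5, a tetraspanin that binds ADAM10, was at 7.85, 7.76, 7.66 and 8.03 in ductus pools 1 to 4, against 9.51, 8.91, 8.75 and 8.83 in aorta pools 1 to 4. The groups did not overlap, and the aorta was higher by 2.26-fold (adjusted p = 0.00529). Of the 9 partners of ADAMs, 3 had an unadjusted p under 0.05 in limma (Tspan5, Tspan14 and Tspan15), all with the aorta higher. Spock2, or testican-2, was at 5.47, 4.88, 5.76 and 4.94 in ductus pools 1 to 4, against 6.30, 6.48, 5.83 and 6.55 in aorta pools 1 to 4. The aorta was higher by 2.04-fold (adjusted p = 0.0392), with aorta replicate 3 just above the highest ductus pool. Of the 7 other inhibitors in the list, 4 had an unadjusted p under 0.05 in limma (Spock2, Spock3, Cst3 and Cst6), all with the aorta higher. The convertase Pcsk5 was at 9.18, 9.53, 9.35 and 9.06 in ductus pools 1 to 4, against 8.64, 8.80, 8.68 and 8.77 in aorta pools 1 to 4. It was 1.47-fold higher in the ductus without overlap (adjusted p = 0.0364). For each of the last pair, dropping 1 array could end the call, with 6 of the 8 for Spock2 (adjusted p up to 0.116) and 7 of the 8 for Pcsk5 (up to 0.0934). By the mean over probe sets Spock2 kept its call at a smaller log2 difference of -0.585 (adjusted p = 0.0274), and Pcsk5 lost it (log2 0.395, adjusted p = 0.0665). Limma called 0 of 7 plasminogen system genes, 0 of 7 procollagen-processing genes, 0 of 5 MMP docking genes and 0 of 6 cathepsins, and of these 25 genes 2 had an unadjusted p under 0.05.

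**Figure D5:**
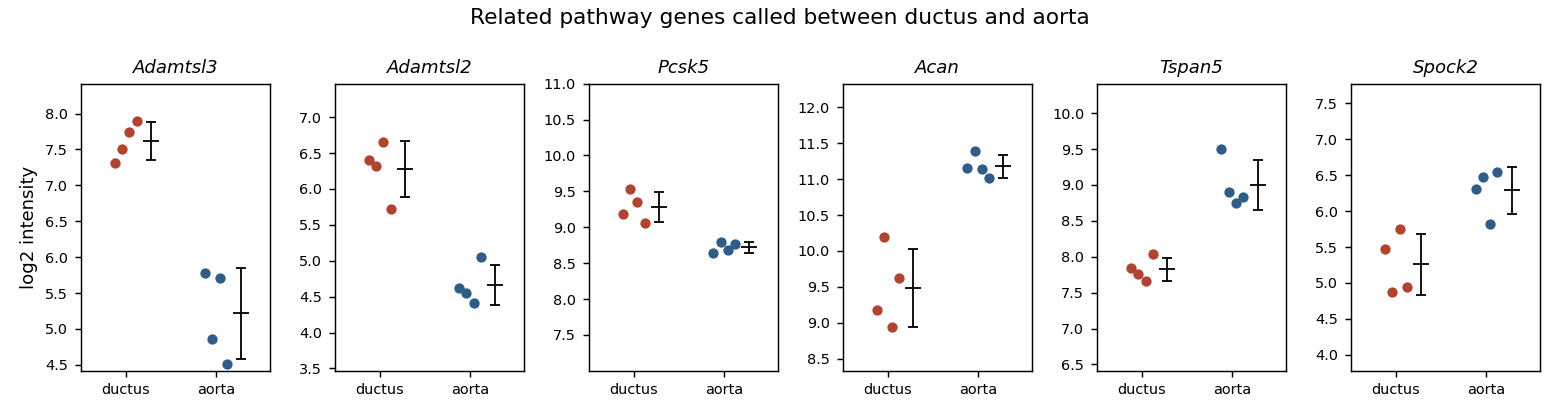
Log2 intensity of the 6 called genes of the related list on each array, with mean ± SD beside the points (4 ductus pools in red, 4 aorta pools in blue). Adamtsl3, Adamtsl2 and Pcsk5 are higher in the ductus, and Acan, Tspan5 and Spock2 are higher in the aorta, without overlap in any panel.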

How the data were processed

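Total RNA of 4 ductus arteriosus pools and 4 aorta pools was measured on 1-colour Affymetrix arrays, each from 6 ug of RNA as biotin-labelled cRNA, per the labels' protocols. The deposited values are log2 intensities, made by the authors with RMA (background correction, quantile normalization and a summary per probe set) and Partek 6.6, both per the submitters' processing notes, which give no settings. No scanner files or detection calls were used. The number of arrays limits the precision. Of 45101 probe sets, 34945 had 1 symbol in the platform annotation, 932 had several and 9160 were not listed there; 5 probe sets with several symbols that include a gene of the rule were left out. Each of the 18193 genes was read from its probe set with the highest mean. The tissues were compared with lmFit and eBayes from limma 3.58.1 (R 4.3.3), over 8 arrays without a covariate, with Benjamini-Hochberg adjustment over all genes and a call at an adjusted p under 0.05. Adjusted p-values are from this test unless another setting or a left-out array is named. Those of probe sets not used for a gene are adjusted over all 34945 probe sets with 1 symbol. Fold changes are 2 to the power of the log2 difference. In simulated data with 200 changed genes of 18193, the test recovered 75% of changes of log2 1 and 96% of those of log2 2, with 13 false calls among 184. The simulated noise was normal and independent between genes. No change smaller than log2 1 was simulated, so recovery of smaller differences was not measured.

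The genes and lists were chosen with earlier results of these data known. Values are given for every called gene, the inhibitors, a set of proteases basic to vessel matrix, and the called genes of the related list. Mmp15, Mmp28 and Adamts2 belonged to that set but were not among the genes measured under the rule, so they have no values here. Adamts8, Mmp17, Mmp8, Vcan, Syn2, Adamtsl5 and Thsd4 were added after their values were seen. Alternatives covered array weights, the scaling, the probe set taken per gene, low-value filters, thresholds, a replicate block, the prior on the variance, an exact permutation test (two-sided, smallest p 0.0286 with 4 against 4) and leaving out each array. Litters gave both vessels, but the labels do not say that a replicate number marks the same litter in both tissues. Promoter sequences are RefSeq's on GRCm38.p6.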

Additional observations from a re-analysis of the deposited data

Results flagged for a closer look

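In 5 of 88 sets of 4 arrays (44 named genes, each tissue apart) 1 array lay far from the other 3 by Dixon's criterion, where chance gives about 5% of sets. Adamts3 in aorta replicate 4 was at 5.16, against 5.91 to 6.01 in the other aorta pools, and its difference was still called without that array. Mmp9 was at 7.22 in ductus replicate 2, against 7.81 to 7.88 in the other ductus pools. Timp3 was at 9.72 in the same array, against 10.05 to 10.10 in the others. Ductus replicate 3 was high for Mmp2, at 10.78 against 10.38 to 10.42, and for Adam15, at 8.11 against 7.43 to 7.49. This array also had the highest marker mean for skeletal muscle (6.35), smooth muscle (10.83), airway epithelium (6.58) and neutrophils (9.87). The part of these cells in the values was not tested.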

How the results depend on the processing

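The number of called genes depended on the threshold, the probe set and single arrays. Of the 66 genes 10 were called, with 6 by the mean over probe sets, 4 with the replicate block, 4 at an adjusted p under 0.01, 4 with at least 2-fold, 4 by limma treat against 1.2-fold and 16 by the exact permutation test without adjustment. Leaving out each array in turn gave 6 to 9 calls, with 6 without ductus replicate 1 or 4. Over all genes, 702 were called, with 403 under the replicate block, 1157 at an adjusted p under 0.1, 304 under 0.01, 388 with at least 2-fold, 328 by treat, 2054 by the permutation test, and 443 (without aorta replicate 2) to 705 on leaving out arrays. The permutation counts of 16 and 2054 equal the counts of genes without overlap between the tissues, so they add no separate result. Same-numbered pools did not deviate together (correlations of -0.068, -0.148, -0.191 and -0.227), and the numbers were not taken as pairs. No pool correlated best with its own number: differently numbered pools reached 0.342 (ductus 1 with aorta 4), 0.295 (ductus 3 with aorta 2), 0.28 (ductus 4 with aorta 3) and 0.188 (ductus 2 with aorta 1), and the labels do not say which pools shared a litter. The main fit therefore takes no account of a litter shared between the tissues. The block by number does not show what pairing by litter would give. Under the block Adamts9, Adamts20, Timp4 and Adamts1 were called. These 4 genes, with Adamts3 and Mmp14, were called without any single array. The sign of uncalled genes near 0 turned in some settings: with the mean over probe sets Timp2 was at 0.021, Mmp19 at 0.013 and Adamts10 at -0.037, Mmp12 was at 0.015 with quantile normalization repeated and 0.02 with array weights, and Adam12 was at -0.001 when the probe set was taken by its interquartile range. On leaving out arrays the log2 differences ranged from -0.138 to 0.059 for Mmp12, -0.105 to 0.103 for Mmp19, -0.179 to 0.051 for Mmp23, -0.116 to 0.141 for Adam12, -0.081 to 0.032 for Adam17, -0.132 to 0.185 for Adam22 and -0.018 to 0.212 for Adamts10. The causes were not tested. With 4 arrays a tissue and no detection calls, differences in the 14 genes at the lowest levels could not be judged. The same holds for genes close to them, such as Adam5, Adam7 and Adam18.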
